A study of Mus musculus with 6 samples.

Results

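The genes described here are 10 that act between the agonist receptors of a platelet and the cytoplasmic tail of its integrins: Rap1a, Rap1b, Rasgrp2, Rasa3, Fermt3, Tln1, Vcl, Apbb1ip, Zyx and Pxn. They were picked by symbol, and all 10 were found among the 14975 genes of the expression table. RNA had been sequenced from peripheral blood platelets of mice on a C57BL/6 background, in 3 libraries labelled WT and 3 labelled AML, each polyA RNA. The label WT stands for BMT controls, irradiated mice that had received normal bone marrow cells. The label AML stands for pre-AML mice at 1 week after receiving MLL-AF9 leukemia cells. The leukemia was made by a retrovirus carrying MLL-AF9 and GFP in Lin-c-kit+Sca-1+ cells, passed through lethally irradiated primary recipients, and its GFP+ cells were then given to sub-lethally irradiated secondary recipients. Recipients were CD45.1 or C57BL/6, and the mice were female and 8 to 12 weeks old. Both groups had thus been through irradiation and a transplantation. Sub-lethally irradiated hosts keep blood-forming cells of their own, no separation of host and donor platelets is described, and a single retroviral oncogene stands for AML here. The series describes 2 replicates per group and pools of 3 to 4 mice, the methods describe 3 mice, and 3 libraries per group were analysed, so the spread between libraries may be partly technical. The libraries are called control 1 to 3 and pre-AML 1 to 3.

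Inside-out activation is the step by which a platelet that has sensed an agonist turns its integrins from a resting to a ligand-binding shape. Calcium activates CalDAG-GEFI, the product of Rasgrp2, which loads the small GTPases RAP1A and RAP1B with GTP, and RASA3 returns them to the GDP-bound state. GTP-bound RAP1 brings talin (Tln1) to the membrane, with or without the adaptor RIAM (Apbb1ip), and talin and kindlin-3 (Fermt3) then bind the integrin beta tail. Vinculin (Vcl), zyxin (Zyx) and paxillin (Pxn) join the complex of integrins and actin that forms around them. Platelets have no nucleus, and their RNA is largely inherited from the megakaryocyte.

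Rap1a and Rap1b are the members that stood apart between the groups, and the start of their coding sequences is shown because the reads of these paralogs have to be told apart. The sequences are bases 1 to 120 of the coding sequence in GENCODE M21 transcripts (GRCm38), with the bases at which the paralogs differ in capitals.
Rap1a: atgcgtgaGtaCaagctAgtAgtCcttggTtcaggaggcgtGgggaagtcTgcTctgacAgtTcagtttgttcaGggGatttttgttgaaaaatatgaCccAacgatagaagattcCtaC
Rap1b: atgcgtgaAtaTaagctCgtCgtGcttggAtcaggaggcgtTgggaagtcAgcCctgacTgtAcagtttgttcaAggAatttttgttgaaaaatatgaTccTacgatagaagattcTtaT
All 17 differences in this stretch lie at the third position of a codon. Over the whole 555 bases the paralogs differed at 102 positions, 79 of them at the third position of a codon, and the longest run of identical bases was 20. No stretch of 50 bases was shared between any transcript of Rap1b and the annotated transcripts of another gene, read on the sense strand. Of the 50-base stretches of Rap1a, 8.27% occurred in 2 other genes, and 7.93% in the single gene Gm9392, a pseudogene. How reads of shared stretches were counted is not known, so the error that they bring to the level of Rap1a is not known either.

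The base composition of the members differs as well, and over all genes tested the fold changes between the groups varied with GC content, as given below. Rap1a (39.3% GC over its transcripts) and Rap1b (41.0%) have the lowest GC content of the 10 genes, and Zyx (60.2%) has the highest. The same 120 bases of Rap1a and those of Zyx are given with G and C in capitals.
Rap1a: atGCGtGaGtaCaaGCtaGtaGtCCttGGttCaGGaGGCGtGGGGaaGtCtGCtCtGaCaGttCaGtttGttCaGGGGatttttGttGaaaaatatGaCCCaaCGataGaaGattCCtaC
Zyx: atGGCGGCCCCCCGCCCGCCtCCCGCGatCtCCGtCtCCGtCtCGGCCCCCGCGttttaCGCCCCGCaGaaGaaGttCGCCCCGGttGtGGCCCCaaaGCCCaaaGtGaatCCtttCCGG
G and C make up 45% of the bases shown for Rap1a and 68.3% of those shown for Zyx.

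Levels are given as the deposited FPKM, read counts scaled to a gene length and a library size. The libraries held between 11.9 M and 17.8 M reads on genes, as recovered from the FPKM values. The library size behind the FPKM of pre-AML 3 was 1.31 times its reads on genes, against 0.983 to 1.01 times in the other libraries. That lowers all FPKM values of pre-AML 3, those of the members included, relative to a scaling to reads on genes. All 14 genes of a platelet marker list were above 1 FPKM in every library, with a sum of 91970 to 115725 FPKM in the controls and 63270 to 94493 in pre-AML platelets. Pre-AML 3 stood apart: its mean Spearman correlation with the other libraries across genes was 0.858, against 0.942 to 0.950 for the other 5, and its FPKM values summed to 376148 against 508605 to 541784. The summed level of 10 B cell markers was 309 FPKM in pre-AML 3, 29.4 in pre-AML 2, 1.45 in pre-AML 1 and at most 2.80 in the controls. Of 14 monocyte and macrophage markers, 12 were above 1 FPKM in pre-AML 3, 4 in pre-AML 2, 3 in pre-AML 1 and 2 in each control, the latter being Lyz2 and Fcer1g at 2280 to 2701 FPKM. None of the B cell, monocyte and macrophage or T and NK cell markers was at 0 in pre-AML 3, whereas 2 to 9 of each list were at 0 in a control. Summed T and NK cell markers were at 19.1 to 28.8 FPKM in the controls and 34.3 to 45.7 in pre-AML platelets, erythroid markers at 2351 to 2653 and 2377 to 2991, and neutrophil markers at 2.08 to 2.98 and 1.11 to 3.73. Tyrobp, a signaling adaptor of myeloid and NK cells, had 153 FPKM in pre-AML 3 and at most 4.85 in any other library. The platelets had been depleted of CD45+ and Ter119+ cells, which carry the markers of leukocytes and erythroid cells.

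The pathway was strongly expressed in platelets, with 2 exceptions. In control platelets the mean levels ran from Fermt3 at 902 ± 63.1 FPKM (SD, n = 3) and Zyx at 842 ± 73.7 through Rap1b, Tln1, Rasgrp2, Rap1a and Rasa3 to Vcl at 24.4 ± 3.55. Pxn and Apbb1ip followed at 0.280 ± 0.0807 and 0.0211 ± 0.0185 FPKM. The ranges of Fermt3 and Zyx overlapped, whereas all other neighbours in this order were separated in the controls. In pre-AML platelets the order was the same except that Rap1a, at a mean of 65.0 FPKM, came below Rasa3 at 73.4, with overlapping ranges, and the ranges of Pxn and Apbb1ip overlapped as well. Fermt3 ranked 64 among the 14975 genes in the controls, Zyx 71 and Rap1b 105. The summed FPKM of the 10 genes was 2786, 2633 and 2925 in the controls and 2837, 2992 and 2393 in pre-AML 1, 2 and 3, and the groups overlapped.

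**Figure D1:**
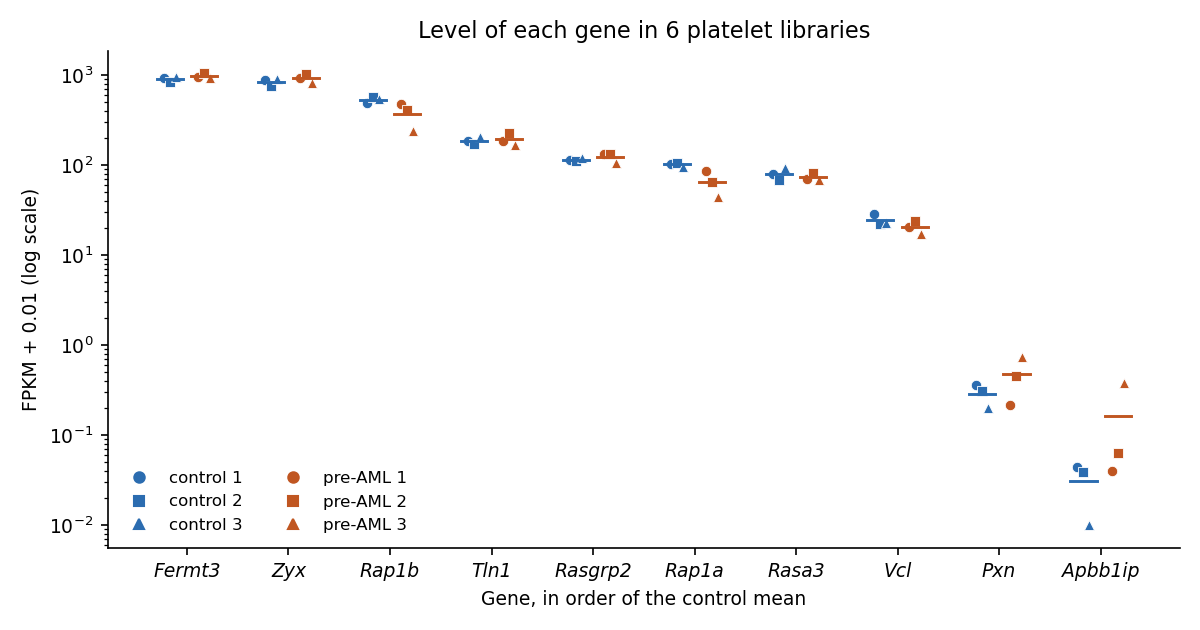
Level of each of the 10 genes in the 6 libraries, as FPKM + 0.01 on a log axis, with points for libraries and a bar at each group mean. The points of Rap1a and Rap1b lie lower in all 3 pre-AML libraries than in all controls, while those of the other genes overlap between the groups.

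Pre-AML and control platelets were compared over the genes whose mean was 1 FPKM or more in the 6 libraries. The fold changes are differences of log2(FPKM + 1), and the test was limma-trend with Benjamini-Hochberg adjustment over all 4412 genes tested. Of the 10 members 8 were tested, and their lowest value in any library was 16.9 FPKM. None of the 8 had an adjusted p under 0.05, against 0.0227% of all genes tested, which is the 1 gene Gzma, granzyme A of cytotoxic lymphocytes. At an unadjusted p under 0.05, 2 members were lower in pre-AML platelets, against 6.53% of all genes tested, and 0 were higher, against 2.56%. The same 2 members, Rap1a and Rap1b, did not overlap between the groups, with 12.8% of all genes tested lower without overlap and 6.14% higher without overlap. The fold change was below 0 in 4 members and above 0 in 4, against 58.5% and 41.5% of all genes tested, whose median was -0.055.

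Rap1a was lower in every pre-AML library than in every control. Its gene lies on chromosome 3 (GRCm38, chr3:105727267-105801336, minus strand). Its level was 103, 107 and 95.4 FPKM in the controls and 85.8, 64.8 and 44.4 FPKM in pre-AML 1, 2 and 3, from 2547 to 3911 reads. Pre-AML 1 was closest to the controls and pre-AML 3 furthest from them. The group means were 102 ± 5.67 FPKM and 65.0 ± 20.7 FPKM (SD, n = 3 each), a change of -36.0%. The log2 fold change was -0.68 (standard error 0.22, 95% interval -1.20 to -0.17, adjusted p = 0.522 from limma-trend). In bulk RNA, fewer molecules of a transcript in each platelet and fewer platelets that hold it cannot be told apart.

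Rap1b, the more abundant RAP1 gene of platelets, had the same order of pre-AML libraries, with those of the controls in another order. It lies on chromosome 10 (chr10:117813871-117846035, minus strand). Its level was 484, 565 and 538 FPKM in the controls and 470, 404 and 242 FPKM in pre-AML 1, 2 and 3, from 16262 to 22910 reads. Pre-AML 1 stood just below control 1, and pre-AML 3 was again the lowest library. The group means were 529 ± 41.2 FPKM and 372 ± 117 FPKM (SD, n = 3 each), a change of -29.7%. The log2 fold change was -0.56 (standard error 0.24, 95% interval -1.10 to -0.020, adjusted p = 0.522 from limma-trend). Without pre-AML 3 the log2 fold changes of Rap1a and Rap1b were -0.44 and -0.28 (adjusted p = 0.448 and 0.523 from limma-trend).

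The ratio of the paralogs overlapped between the groups. There were 4.71, 5.29 and 5.63 FPKM of Rap1b for each FPKM of Rap1a in the controls and 5.48, 6.22 and 5.43 in pre-AML 1, 2 and 3. The range of the controls held 2 of the pre-AML libraries, with pre-AML 2 above it. The log2 ratio was higher by 0.13 in pre-AML platelets, which is within the spread between libraries (exact two-sided permutation test, p = 0.4, adjusted p = 0.5 over the 4 ratios tested, where 0.1 is the smallest p that 3 against 3 libraries allow).

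Tested genes of low GC content were mostly lower in pre-AML than in control libraries, and Rap1a and Rap1b are among them. Across the 4395 tested genes with a GC value, the Spearman correlation of a gene's deviation from its mean with its GC content was -0.32, -0.41 and -0.33 in the controls and -0.042, 0.32 and 0.51 in pre-AML 1, 2 and 3. Genes are not independent replicates, and the correlations are a description of the libraries. Among the 316 genes under 42% GC, which include Rap1a and Rap1b, the median log2 fold change was -0.33, 10% lay below -0.57, and 38% were lower without overlap. Among the 537 genes of 57% GC or more, which include Zyx, the median was 0.17 and 1.68% were lower without overlap.

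**Figure D2:**
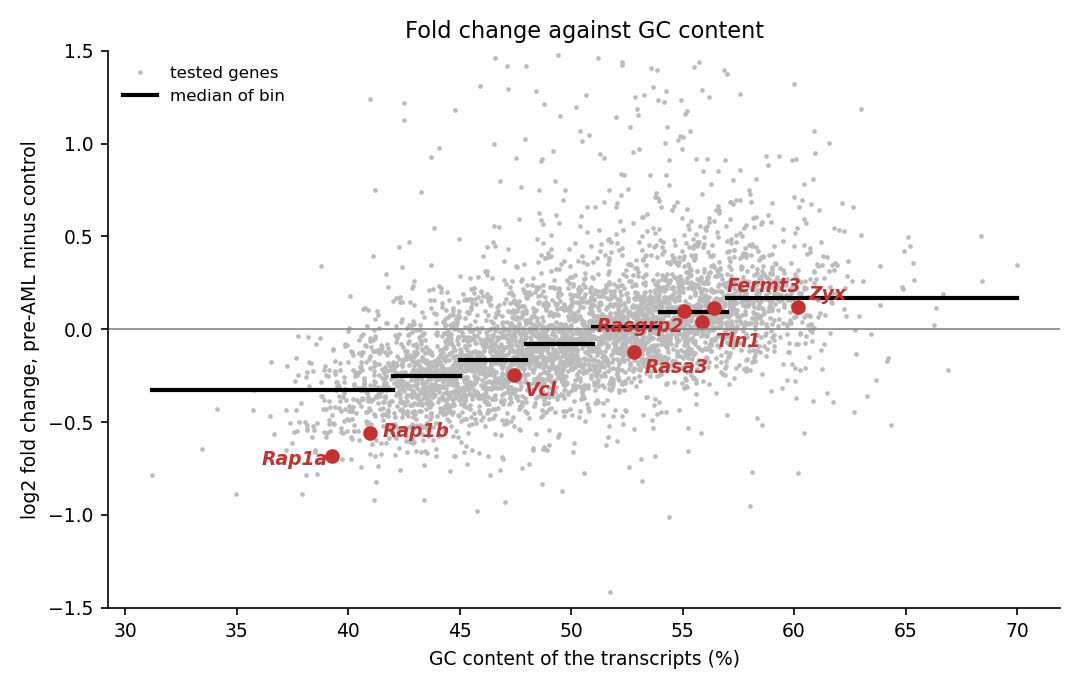
Log2 fold change (pre-AML minus control, on log2(FPKM + 1)) of the 4395 tested genes against the GC content of their transcripts in percent. Black lines give the median of 7 bins and red points the 8 tested members. The medians run from -0.33 under 42% GC to 0.17 at 57% or more, Rap1a and Rap1b lie below the median of their bin, and 40 genes beyond a log2 fold change of 1.5 in size are outside the drawn range.

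A loess trend over exon length and the GC content of the transcripts was next taken out of each library. The log2 fold change of Rap1a was then -0.29 (95% interval -0.55 to -0.027, adjusted p = 0.749 from limma-trend). All 3 pre-AML libraries remained below all controls, at 6.39, 6.16 and 6.04 against 6.46, 6.55 and 6.44 on the log2 scale. That of Rap1b was -0.21 (95% interval -0.54 to 0.11, adjusted p = 0.758 from limma-trend), and pre-AML 1 and 2, at 8.84 and 8.76, lay above control 1 at 8.72. When pre-AML 3 was left out as well, an alternative added after the data were seen, the values were -0.20 for Rap1a and -0.069 for Rap1b. Either step alone moved both values by more than 1.5 times, and the part that GC content has in the difference was not tested beyond these values.

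**Figure D3:**
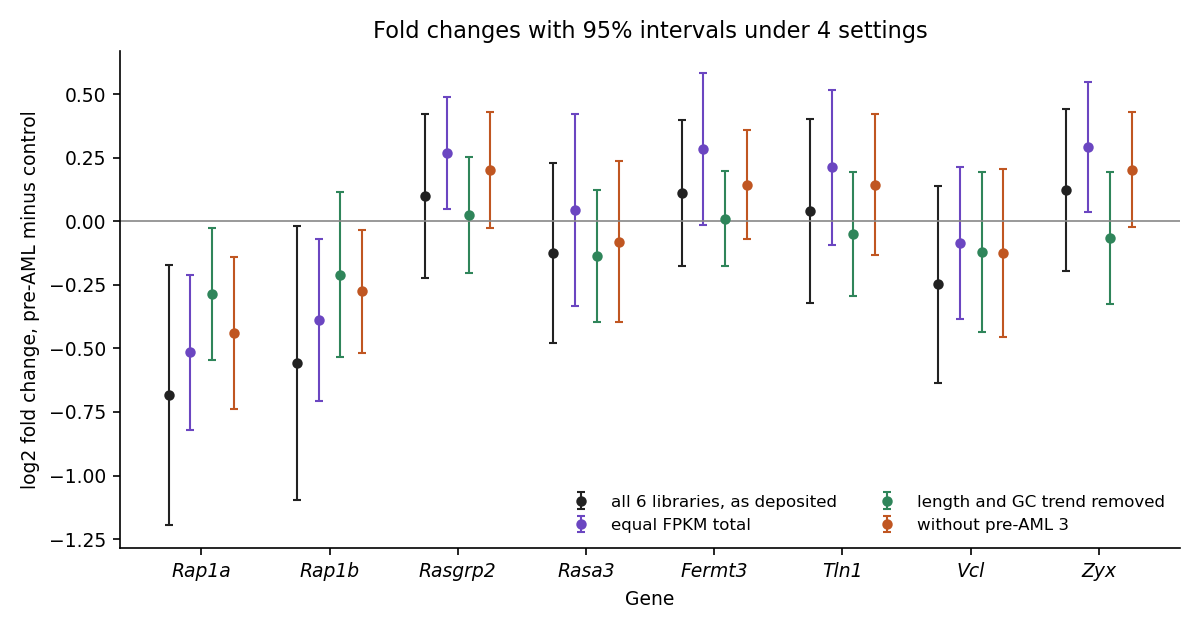
Log2 fold change (pre-AML minus control) of the 8 tested members with 95% intervals of limma-trend under 4 settings, one colour for each. The intervals of Rap1a lie below 0 in all 4, that of Rap1b crosses 0 with the length and GC trend removed, and Rasa3, Tln1 and Zyx change sign between settings.

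Ratios of Rap1b to 3 other genes were chosen after their values were seen and are given without a test. For each FPKM of Fermt3 there were 0.526, 0.678 and 0.563 FPKM of Rap1b in the controls and 0.495, 0.387 and 0.260 in pre-AML 1, 2 and 3. For each FPKM of Rasgrp2, its activator, there were 4.25, 5.12 and 4.44 FPKM of Rap1b in the controls and 3.55, 3.04 and 2.27 in pre-AML 1, 2 and 3. These 2 ratios, to genes of 56.4% and 55.1% GC, did not overlap between the groups. Against Itgb1, a gene of 44.7% GC, the ratio of Rap1b was 1.63, 2.31 and 1.94 in the controls and 2.00, 1.82 and 1.44 in pre-AML 1, 2 and 3, and the groups overlapped. Itgb1 was itself lower in all pre-AML libraries (log2 fold change -0.40), while Fermt3 and Rasgrp2 were at 0.11 and 0.098. The 3 ratios follow from these changes, and the part of GC content in them was not tested.

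Other RAP genes were far less abundant. Rap2b and Rap2a, whose products are relatives of RAP1 with targets of their own, averaged 14.2 ± 1.52 and 11.2 ± 1.27 FPKM in the controls. In pre-AML platelets they averaged 13.1 ± 1.55 and 11.1 ± 2.18 FPKM (SD, n = 3). Their groups overlapped. Rap2c, named after its values were seen and with 36.5% GC, had 4.09, 4.13 and 2.87 FPKM in the controls and 3.20, 2.62 and 1.52 FPKM in pre-AML 1, 2 and 3, with overlap. Its log2 fold change was -0.47 (adjusted p = 0.522 from limma-trend).

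Rasgrp2 and Rasa3, which turn RAP1 on and off, overlapped between the groups. Rasgrp2 (chr19:6399340-6415216, plus strand) had 114, 110 and 121 FPKM in the controls and 132, 133 and 106 FPKM in pre-AML 1, 2 and 3. Pre-AML 1 and 2 were above all controls and pre-AML 3 below them. Its log2 fold change was 0.098 (standard error 0.14, 95% interval -0.22 to 0.42, adjusted p = 0.785 from limma-trend), and it was 0.20 without pre-AML 3, 0.047 without pre-AML 1, 0.045 without pre-AML 2 and 0.025 with the length and GC trend removed.

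Rasa3 (chr8:13566948-13677603, minus strand) had 80.4, 68.8 and 91.8 FPKM in the controls and 69.2, 82.2 and 68.7 FPKM in pre-AML 1, 2 and 3. The pre-AML libraries lay within or just below the range of the controls. Pre-AML minus control came to -0.12 on the log2 scale (standard error 0.15, 95% interval -0.48 to 0.23, adjusted p = 0.743 from limma-trend), and its sign turned under other scalings, as in 0.045 with equal FPKM totals.

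The balance of the activator and the inactivator of RAP1 can be read within a library. For each FPKM of Rasa3 there were 1.41, 1.60 and 1.32 FPKM of Rasgrp2 in the controls and 1.91, 1.61 and 1.55 in pre-AML 1, 2 and 3. Pre-AML 3 lay below control 2, so the groups overlapped. The log2 ratio was higher by 0.23 in pre-AML platelets, and another split of the libraries gave a difference as large (exact two-sided permutation test, p = 0.2, adjusted p = 0.4 over 4 ratios).

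Rasgrp2 and Rasa3 were the most abundant genes of their families. Rasgrp3, another exchange factor, had 12.3, 11.4 and 15.3 FPKM in the controls and 13.4, 13.4 and 8.21 FPKM in pre-AML 1, 2 and 3, with overlap. Rasgrp1 and Rasgrp4, exchange factors of lymphocytes and of mast and myeloid cells, were named after their values were seen. Rasgrp1 had 0 reads in each control and 8, 11 and 106 reads in pre-AML 1, 2 and 3. Rasgrp4 had 1, 0 and 0 reads in the controls and 0, 4 and 70 in pre-AML 1, 2 and 3. Pre-AML 3 was the highest library for both, as for the B cell and monocyte markers above, and the part of those cells in these reads was not tested. Among the GTPase-activating genes, Rasa2 had 1.85 ± 0.146 FPKM and Rasa1 0.141 ± 0.0499 FPKM in control platelets (SD, n = 3), and both were named after their values were seen.

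Talin and kindlin-3, the proteins that bind the integrin beta tail, had overlapping levels. Tln1 (chr4:43531519-43562691, minus strand) had 183, 171 and 207 FPKM in the controls and 187, 227 and 167 FPKM in pre-AML 1, 2 and 3. Pre-AML 2 was the highest and pre-AML 3 the lowest of all 6 libraries. The log2 fold change was 0.042 (standard error 0.16, 95% interval -0.32 to 0.40, adjusted p = 0.930 from limma-trend), and it turned to -0.051 with the length and GC trend removed. Tln2, the other talin gene, named after its values were seen, had 0, 5 and 0 reads in the controls and 0, 1 and 38 reads in pre-AML 1, 2 and 3.

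Fermt3 (chr19:6998958-7019469, minus strand), the blood cell kindlin, was the most abundant member in both groups. It had 920, 832 and 955 FPKM in the controls and 951, 1043 and 931 FPKM in pre-AML 1, 2 and 3. Only pre-AML 2 was above all controls. Its log2 fold change was 0.11 (standard error 0.12, 95% interval -0.17 to 0.40, adjusted p = 0.715 from limma-trend). It was 0.010 with the length and GC trend removed, 0.31 with platelet marker scaling, 0.055 without control 2 and 0.063 without pre-AML 2. Fermt2, the kindlin of many adherent cells, named after its values were seen, had at most 0.507 FPKM in any library.

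For each FPKM of Fermt3 there were 0.199, 0.205 and 0.217 FPKM of Tln1 in the controls and 0.196, 0.218 and 0.179 in pre-AML 1, 2 and 3. The spread of the pre-AML libraries enclosed that of the controls. The log2 ratio differed by -0.070 between the groups (exact two-sided permutation test, p = 0.5, adjusted p = 0.5 over 4 ratios). This value rested on pre-AML 3, without which it was -6.0e-05, and it was -0.036 without control 3 and -0.14 without pre-AML 2.

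Apbb1ip, which encodes the adaptor RIAM, was hardly present. The gene (chr2:22774094-22875653, plus strand) had 3, 3 and 0 reads in the controls and 3, 6 and 64 reads in pre-AML 1, 2 and 3. This corresponds to 0.0345, 0.0288 and 0 FPKM in the controls and 0.0304, 0.0536 and 0.370 FPKM in pre-AML 1, 2 and 3. The controls were at or below the floor of 3 reads per library, so no fold is given. The high value was that of pre-AML 3, the library with the highest B cell, T and NK cell and monocyte markers (its neutrophil markers, at 1.80 FPKM, were below the controls), and their part in it was not tested. Raph1, the gene of the related adaptor lamellipodin, named after its values were seen, had at most 0.103 FPKM in any library.

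**Figure D4:**
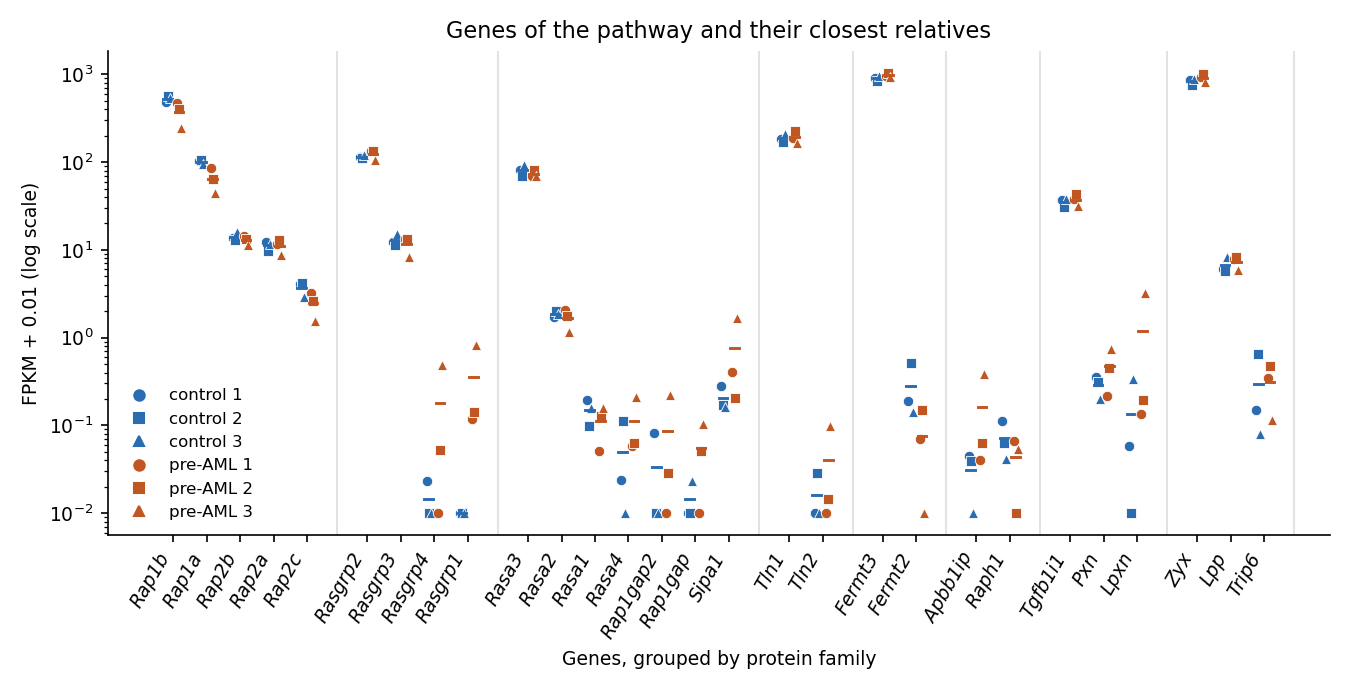
Level of the members and their relatives in the 6 libraries, as FPKM + 0.01 on a log axis (a value of 0 is drawn at 0.01), grouped by family, with points for libraries and a bar at each group mean. In the talin, kindlin and zyxin families 1 gene stands far above the others, and Tgfb1i1 stands above Pxn. The points of pre-AML 3 are the highest for Rasgrp1, Rasgrp4, Rasa4, Rap1gap2, Rap1gap, Sipa1, Tln2, Apbb1ip, Pxn and Lpxn.

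Vinculin and zyxin, which join the integrin complex after talin, overlapped between the groups. Vcl (chr14:20929398-21033676, plus strand) had 28.5, 21.9 and 22.9 FPKM in the controls and 20.7, 23.7 and 16.9 FPKM in pre-AML 1, 2 and 3. Control 1 was the highest and pre-AML 3 the lowest library. Its log2 fold change was -0.25 (standard error 0.17, 95% interval -0.64 to 0.14, adjusted p = 0.575 from limma-trend), and it was -0.13 without pre-AML 3, -0.14 without control 1 and -0.12 with the length and GC trend removed. Exons of Ap3m1 on the other strand cover 25.5% of the exon bases of Vcl, and SMART-Seq2 reads carry no strand, so reads of these genes cannot be fully told apart. For the other members that share was at most 4.38%.

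Zyx (chr6:42349630-42360213, plus strand) had 874, 757 and 894 FPKM in the controls and 921, 1015 and 816 FPKM in pre-AML 1, 2 and 3. Pre-AML 1 and 2 were above all controls and pre-AML 3 was among them. Its difference between the groups was 0.12 on the log2 scale (standard error 0.14, 95% interval -0.20 to 0.44, adjusted p = 0.720 from limma-trend), and it turned to -0.065 with the length and GC trend removed. With every library scaled to the same FPKM total, Zyx and Rasgrp2 had an unadjusted p under 0.05 and log2 fold changes of 0.29 and 0.27 (adjusted p = 0.446 and 0.428 from limma-trend). That scaling moved the median of all genes from -0.055 to 0.081, and relative to the median Zyx was at 0.18 as deposited and 0.21 with equal totals.

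For each FPKM of Vcl there were 6.40, 7.78 and 9.01 FPKM of Tln1 in the controls and 8.96, 9.56 and 9.77 in pre-AML 1, 2 and 3. Control 3 lay just above pre-AML 1. The log2 ratio was higher by 0.30 in pre-AML platelets (exact two-sided permutation test, p = 0.2, adjusted p = 0.4 over 4 ratios), and with the length and GC trend removed it was higher by 0.023.

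**Figure D5:**
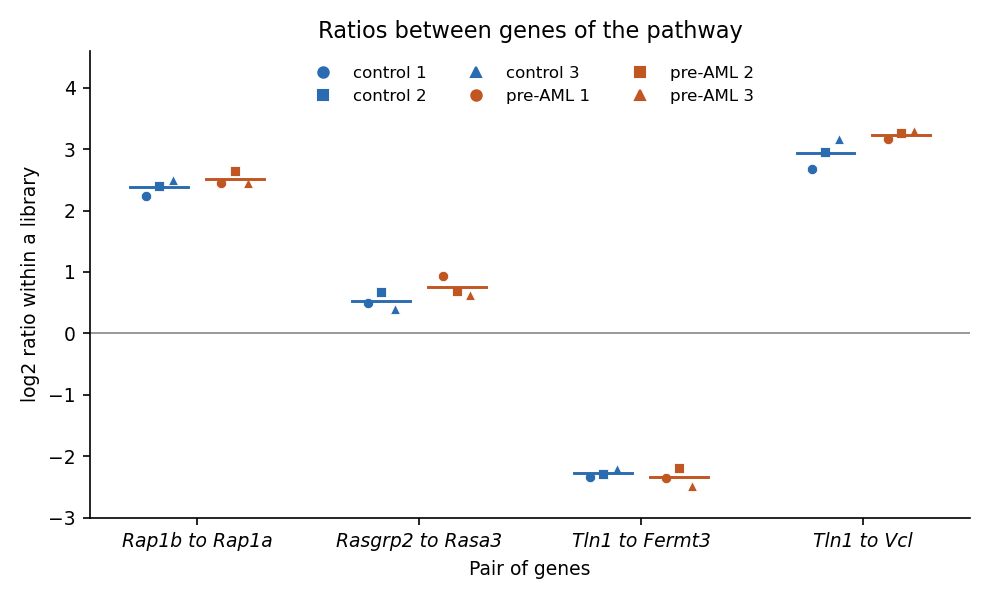
Log2 ratio of 4 pairs of members within each library, with points for libraries and a bar at each group mean. In all 4 pairs the 3 control and 3 pre-AML libraries overlap, and the differences of the means run from -0.070 (Tln1 to Fermt3) to 0.30 (Tln1 to Vcl).

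Pxn, the gene of paxillin, was almost absent while a relative was well expressed. The gene (chr5:115506676-115555987, plus strand) had 0.349, 0.300 and 0.191 FPKM in the controls and 0.206, 0.446 and 0.737 FPKM in pre-AML 1, 2 and 3. It did not pass the filter, and without a filter its log2 fold change was 0.18 (95% interval -0.22 to 0.58, adjusted p = 0.722 from limma-trend). At levels below 1 FPKM the added 1 FPKM pulls that value towards 0. The ratio of the group means of Pxn was 1.65, with pre-AML 3 the highest library and pre-AML 1 within the range of the controls. Tgfb1i1, which encodes the paxillin relative HIC-5, had 36.5, 30.6 and 38.1 FPKM in the controls and 37.8, 43.2 and 31.4 FPKM in pre-AML 1, 2 and 3. Its groups overlapped (log2 fold change 0.087, adjusted p = 0.838 from limma-trend). Lpxn, the leukocyte member leupaxin, named after its values were seen, had 1, 0 and 7 reads in the controls and 3, 5 and 135 reads in pre-AML 1, 2 and 3, so that pre-AML 3 was again the highest library.

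Of the zyxin relatives, Lpp averaged 6.67 ± 1.39 FPKM in the controls and 7.30 ± 1.30 FPKM in pre-AML platelets (SD, n = 3), and Trip6 had at most 0.644 FPKM in any library. Both were named after their values were seen. More abundant LIM genes were Fhl1, at 512, 502 and 565 FPKM in the controls and 525, 534 and 400 FPKM in pre-AML 1, 2 and 3, and Csrp1, whose groups also overlapped (log2 fold change 0.013, adjusted p = 0.979 from limma-trend). In this list of LIM genes 6 of 10 were tested and 0 passed the threshold. Of these 6, 4 were above 0 and 2 below, against 41.5% and 58.5% of all genes tested. The median log2 fold change was 0.050, or 0.0079 with the length and GC trend removed.

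The wider pathway was read from 4 further lists. Over all genes tested, 58.5% were below 0 and the median was -0.055. With the length and GC trend removed the median of all genes was 0.0099. Of 26 genes of the RAP1 and RAS cycle, 6 were tested, 0 passed the threshold or an unadjusted p under 0.05, and all 6 were below 0 with a median of -0.12, which was 0.065 with the length and GC trend removed. Of 23 genes of upstream calcium and lipid signals, 16 were tested, 0 passed either threshold and 12 were below 0. The median of the 16 was -0.071, or -0.046 with the trend removed. In that list Gnai2, an inhibitory G protein subunit, had 59.0 FPKM on average in control and 63.6 in pre-AML platelets, and Stim1, the calcium sensor of the stores, had 28.3, 26.1 and 27.4 FPKM in the controls and 21.5, 27.9 and 22.9 FPKM in pre-AML 1, 2 and 3. Both overlapped between the groups, as did Prkcd, a protein kinase C gene.

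Of 37 genes of integrin-bound adaptors and kinases, 20 were tested, 0 passed either threshold and 13 were below 0, against 58.5% of all genes tested. The median of the 20 was -0.048, against -0.055 over all genes tested, and it was -0.062 with the trend removed. In this list 4 genes were lower in pre-AML platelets without overlap, Lims1, Rsu1, Lyn and Skap2, against the 12.8% of all genes tested. Lims1 and Rsu1, partners in the complex around integrin-linked kinase, had log2 fold changes of -0.25 and -0.34 and GC contents of 43.1% and 45.8%. Lyn, a SRC family kinase, and Skap2, an adaptor near it, were at -0.22 and -0.33, with 46.4% and 40.8% GC. Of these 4 genes Lims1, Rsu1 and Skap2 were named after their values were seen. Parvb and Flna, an actin-binding partner of integrin-linked kinase and a filamin that competes with talin for the beta tail, were the most abundant of the list and overlapped between the groups.

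The integrins themselves are the targets of the pathway. Of 7 subunit genes 6 were tested, 0 passed the adjusted threshold, 2 had an unadjusted p under 0.05 and were lower, against 6.53% of all genes tested. The median log2 fold change was -0.27, or -0.16 with the length and GC trend removed. Itgb1, the beta 1 subunit of collagen, fibronectin and laminin receptors, had 296, 245 and 277 FPKM in the controls and 235, 222 and 167 FPKM in pre-AML 1, 2 and 3. Itga2, its partner in the collagen receptor, had 11.4, 11.0 and 12.3 FPKM in the controls and 9.89, 9.65 and 6.78 FPKM in pre-AML 1, 2 and 3. Both genes were lower in all pre-AML libraries than in all controls, with log2 fold changes of -0.40 and -0.37 (adjusted p = 0.522 each from limma-trend), and with the trend removed they were at -0.17 and -0.15. Itgav, named after its values were seen, was also lower without overlap at about 1 FPKM, which makes 3 of the 6 subunit genes against 12.8% of all genes tested.

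The subunits of the platelet integrin alphaIIb beta3 overlapped between the groups. Itga2b was at a log2 fold change of 0.12 and turned to -0.022 with the trend removed. Itgb3 had 792, 576 and 700 FPKM in the controls and 611, 685 and 510 FPKM in pre-AML 1, 2 and 3 (log2 fold change -0.19, 95% interval -0.58 to 0.20, adjusted p = 0.642 from limma-trend). With the trend removed Itgb3 was at -0.17, close to the values of Itgb1 and Itga2, and differences between the subunits were not tested.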

How the data were processed

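Platelet RNA of 3 control and 3 pre-AML libraries (SMART-Seq2, Nextera XT) was compared. The authors mapped reads to mm10 with STAR and tested with DESeq2, and they deposited FPKM values of 14975 genes. The counting program and annotation are not given in the sources used here. With exon lengths of GENCODE M21 (GRCm38, the same build), 85.3% of the deposited FPKM values gave whole reads (tolerance 0.02). Those of Fermt3 did so in no library and those of Pxn in only 1 of 6, so the length of both genes in the deposited values may differ.

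Genes averaging 1 FPKM or more were tested with limma-trend (limma 3.58.1, R 4.3.3) on log2(FPKM + 1), adjusted p-values were by Benjamini-Hochberg, and the threshold was 0.05. Ratios used FPKM + 0.1 and exact permutation tests (Python 3.11.15, scipy 1.17.1). Trends with length and GC content were removed by loess in each library. Alternatives were other pseudocounts, filters and scalings, limma-voom on the recovered reads, array weights, the replicate number as a block, and leaving out each library. Named genes were the 10 members, the 3 highest of each pathway list with those at an unadjusted p under 0.05, and the 3 highest of each marker list. The members and lists were chosen with earlier results of these data known. No sequencing batch is given in the sources used here. Counting error is small beside the spread between libraries for the tested members, and reads from PCR are not independent molecules.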

Additional observations from a re-analysis of the deposited data

How the results depend on the processing

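No member passed the adjusted threshold under any of the 17 alternatives, and the number of members past it was 0 throughout. Rap1a and Rap1b were below 0 in all 17, from -0.91 to -0.20 and from -0.75 to -0.069, with an unadjusted p under 0.05 in 15 and 11 of them. Vcl was below 0 and Rasgrp2 and Fermt3 above 0 in all 17. With no filter, a mean of at least 5 FPKM or the replicate block, the log2 fold change of a tested member is by construction the same as reported. Its sign in those alternatives therefore adds no support. Rasa3 turned to 0.045 with equal FPKM totals, 0.073 with platelet marker scaling, 0.0037 with array weights (estimated without convergence) and 0.019 with limma-voom. Tln1 turned to -0.051 with the length and GC trend removed, -0.021 without control 2 and -0.080 without pre-AML 2, and Zyx to -0.065 with the trend removed. Over all genes, 1 passed the threshold as reported, 0 did with no filter, a mean of at least 5 FPKM, equal FPKM totals, platelet marker scaling, the trend removed or limma-voom, 2 with array weights or with the trend removed and pre-AML 3 left out, and 0 to 2 when 1 library was left out. The sign of the 4 ratios held in all alternatives run, for Tln1 to Fermt3 only nominally (-6.0e-05 without pre-AML 3). Leaving out 1 library moved Rap1b to Rap1a from 0.13 to 0.062 (control 1) or 0.070 (pre-AML 2), Rasgrp2 to Rasa3 from 0.23 to 0.13 (pre-AML 1) and Tln1 to Vcl from 0.30 to 0.17 (control 1).

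Genes with an unadjusted p under 0.05 numbered 113 higher and 288 lower in pre-AML platelets as deposited, 275 and 194 with equal FPKM totals, 362 and 125 with platelet marker scaling, 231 and 259 with limma-voom, 497 and 373 of 14975 with no filter, and 49 and 217 of 2159 with a mean of at least 5 FPKM. Scaling moved the median of all genes by 0.14 with equal totals, 0.20 with platelet markers and 0.13 with limma-voom. Members lower at that p numbered 2 as reported, 1 with no filter, with the trend removed, without control 1 or without control 3, and 0 without control 2 or with the trend removed and pre-AML 3 left out. Members higher numbered 0 as reported, 1 with array weights, 2 with equal totals and 3 with quantile normalization, platelet marker scaling or limma-voom.

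Same-numbered libraries did not deviate together (correlations -0.043, -0.12 and -0.17), which cannot exclude that they were prepared together. No pairing is given in the sources used here. With the replicate number as a block, 1 gene and 0 members passed the threshold, and Rap1a was at -0.68 (adjusted p = 0.569 from limma-trend). The cause of these dependencies was not tested. With 3 libraries per group, an exact test of a ratio cannot go below p = 0.1.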
